A study of Mus musculus and Homo sapiens with 34 samples.

Results

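The conjugating enzymes make fat-soluble compounds excretable by attaching a polar group to them. The set described here held every gene of the deposited count tables named as a UDP-glucuronosyltransferase of families Ugt1, Ugt2 or Ugt3, a glutathione S-transferase of the alpha, mu, pi, omega, theta, kappa or zeta class, a microsomal glutathione S-transferase (Mgst) or a sulfotransferase (Sult). Members were taken by gene name, which gave 94 genes, 47 mouse and 47 human, of 48431 genes listed in all (21401 mouse and 27030 human).

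Glucuronosyltransferases move glucuronic acid from UDP-glucuronate onto drugs, steroids and bilirubin. Glutathione S-transferases join glutathione to reactive electrophiles, and sulfotransferases move sulfate from the donor PAPS onto phenols, steroids and thyroid hormone. The families are known for high levels in liver and gut. HNF4A, the nuclear receptor whose gene was deleted or induced here, is known as a regulator of liver and gut genes.

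The study profiled poly(A) RNA from mouse organoids and cells and from human lung adenocarcinoma lines in 34 libraries, 2 for each of 17 groups. The 3154 organoids carried, among others, p53frt, Rosa-FSF-CreERT2 and Hnf4aflox alleles. They were given 4-hydroxytamoxifen (4OHT), which activates the Cre enzyme, or its solvent ethanol (EtOH). In 1 experiment 4OHT was given at 2 mM for 2 days, and organoids were collected 2 weeks later. In another they were collected after 48 h of vehicle or 3 nM MRTX1133, a small-molecule inhibitor, in both the EtOH and the 4OHT arm. There 48 h is the time with vehicle or inhibitor, and the dose and time of 4OHT are not given here. Below, 48 h names this experiment and is not a time after 4OHT. No group received 4OHT without the floxed Hnf4a allele. Effects of 4OHT itself, of Cre activity and of the loss of Hnf4a thus cannot be told apart. Hnf4a deletion names the comparison of 4OHT with EtOH organoids throughout, and deleted and intact name these 2 arms. The 1027B organoids carried, among others, p53frt, Rosa-FSF-CreERT2, Foxa1flox and Foxa2flox and received vehicle, 10 nM trametinib (a MEK inhibitor) or 20 nM MRTX1133 for 48 h. The 3311 lung line had the same genotype as 1027B and received vehicle or 50 nM trametinib for 48 h. Trametinib at 20 nM for 48 h, or its vehicle, was also given to 2 human lung adenocarcinoma lines (H358 and H1651). H1651 was also grown for 7 days, either with a lentiviral doxycycline-inducible HNF4A and 1 µg/mL doxycycline or without doxycycline. The labels give the HNF4A overexpression genotype for the doxycycline samples alone and do not state whether cells without doxycycline held the construct, so construct and doxycycline cannot be told apart. All 3154 and 1027B organoids grew in 50% L-WRN conditioned medium, and the labels describe each organoid culture and cell line as a single named line.

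The libraries held between 19692517 and 45284286 counts. Levels are CPM (a gene's counts relative to the library total) scaled with edgeR's TMM factors, and 3 counts, taken as the floor, corresponded to between 0.0645 and 0.162 CPM by library. A gene was called where its adjusted p (edgeR's quasi-likelihood test, Benjamini-Hochberg over all genes tested) was under 0.05, and fold changes are log2 with their standard error (SE). The labels do not say that the 2 libraries of a group came from separate cultures, so the p-values measure the spread between these libraries, which may be technical. Epithelial markers summed to at least 3770 CPM in every library, and fibroblast markers to at most 1.70 CPM in the 3154 and 1027B organoids. In bulk RNA, fewer cells of a type and less RNA per cell cannot be told apart.

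In the mouse genome (GRCm38, matched by Ensembl gene ID to GENCODE M21 for 47 of 47 mouse genes), most members lay in family clusters. The Ugt2 genes and Sult1b1 and Sult1d1, 8 members, shared chromosome 5 from 86889767 to 87569027. The 7 Gstm genes of the main cluster lay on chromosome 3 from 107895821 to 108044894, the 6 Ugt1a genes on chromosome 1 from 88055388 to 88220002 and the 4 Gstt genes on chromosome 10 from 75774115 to 75837424. The Ugt1a genes share their last exons, so that between 50.3% and 60.6% of the exon bases of each were also exon of another gene on the same strand, and how the authors' counting split such reads is not given in the sources used here. Near-identical family members (the Gstm genes, Gstp1 and Gstp2, UGT2B15 and UGT2B17) may also share reads, and their separate values are uncertain.

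The upstream sequences of 4 members that were called lower in all 3 Hnf4a deletion comparisons, those with the largest log2 fold changes at 48 h, are shown because the groups compared differed in a DNA-binding factor. Sult1b1 is shown because it held the longer HNF4-type motif, and was chosen for that match. They are the 250 bases before the RefSeq start (GRCm38.p6) of Ugt2b34 (chr5:86906938-86907187, minus strand), Ugt2b35 (chr5:87000610-87000859, plus strand), Sult1d1 (chr5:87569007-87569256, minus strand) and Gstm3 (chr3:107969175-107969424, minus strand), and 29 bases around a match at 1 of 2 starts of Sult1b1 (chr5:87536179-87536207, minus strand), each 5′ to 3′. Capitals mark letters on either strand that match a searched motif, and Ugt2b35 had no match in these bases. These were CAAAG, a core of HNF4-type sites, and its longer HNF4-type form CAAAGTCCA, which overlaps it. The dioxin response element core was GCGTG. The antioxidant response element core was TGACNNNGC.

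Ugt2b34: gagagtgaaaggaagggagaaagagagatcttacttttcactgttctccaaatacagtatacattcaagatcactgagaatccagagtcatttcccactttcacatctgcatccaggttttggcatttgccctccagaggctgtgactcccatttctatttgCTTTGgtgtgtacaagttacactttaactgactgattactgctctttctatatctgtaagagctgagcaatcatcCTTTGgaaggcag

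Ugt2b35: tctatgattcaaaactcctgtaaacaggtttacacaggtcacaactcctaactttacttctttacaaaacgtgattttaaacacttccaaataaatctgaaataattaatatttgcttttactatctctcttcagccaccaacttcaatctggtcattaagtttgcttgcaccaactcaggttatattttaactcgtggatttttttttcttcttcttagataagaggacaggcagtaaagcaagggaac

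Sult1d1: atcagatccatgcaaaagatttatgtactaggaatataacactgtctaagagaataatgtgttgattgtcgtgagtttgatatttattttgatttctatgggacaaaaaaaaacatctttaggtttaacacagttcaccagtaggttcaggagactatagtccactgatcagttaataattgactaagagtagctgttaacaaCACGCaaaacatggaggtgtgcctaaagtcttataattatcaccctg

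Gstm3: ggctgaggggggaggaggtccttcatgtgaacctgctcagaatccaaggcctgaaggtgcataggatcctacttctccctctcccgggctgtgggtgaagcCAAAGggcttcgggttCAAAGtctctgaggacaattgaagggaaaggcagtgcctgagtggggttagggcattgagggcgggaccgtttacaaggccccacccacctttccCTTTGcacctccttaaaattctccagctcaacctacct

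Sult1b1: gtgagcaggcCAAAGTCCAttcctggtgg

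In the window from 250 bases before to 50 bases after the start, the short HNF4-type core was present in 53.9% of all 32851 mouse promoters of the table, the longer form in 0.475%, the dioxin response core in 32.4% and the antioxidant response core in 12.4%. Sequences were found for 42 of the 47 mouse members, with 53 promoters. The short HNF4-type core was in 35 of these 53 promoters, the longer form in 1 (Sult1b1), the dioxin response core in 12 and the antioxidant response core in 4 (Gsta3, Gstm5, Gstm7 and Mgst1). These matches are descriptions of the letters in the window and say nothing of binding.

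The first question was how the enzymes differed between 4OHT organoids, in which Hnf4a was deleted, and EtOH organoids. As stated above, an effect of 4OHT or Cre cannot be separated from that of the deletion, and it was not tested. Hnf4a itself was 371 ± 79.6 CPM (SD, n = 2) in EtOH and 60.7 ± 10.2 CPM in 4OHT organoids at 2 weeks, so its level fell by 2.61 on the log2 scale (SE 0.21, adjusted p = 0.00643 by edgeR). Of 41 members listed, 33 passed the filter on low counts and 17 were called, 16 lower and 1 higher. Among all genes of that fit, 9.81% were called, 5.78% lower and 4.03% higher. The members' median log2 fold change was -0.91, against 0.02 for all genes tested. Some members passed the filter only through the EtOH group, where they were high; with at least 10 counts required in every library, 8 members were called, all 8 lower, with 1004 of 13022 genes. Without 4OHT replicate 1 the count was 5, with 395 of 14851 genes, and without 4OHT replicate 2 it was 6, with 437 of 15108 genes; these members were all lower.

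The glucuronosyltransferases and sulfotransferases of the chromosome 5 cluster fell to low levels. All 6 cluster members that were tested were called lower, 4 of them with 3 counts or fewer in each 4OHT library and tested because they were higher in EtOH; with these 4 at their bounds the median log2 fold change was -6.05, and with fitted values -7.43; the 1 other gene tested between them, Gm5869, was not called. Ugt2b34, which encodes a glucuronosyltransferase, had 152 and 549 CPM in the EtOH libraries and 1.58 and 2.62 CPM in the 4OHT libraries. The EtOH libraries differed more than 3-fold from each other, yet the groups stood far apart, and the level fell by 7.39 on the log2 scale (SE 0.78, adjusted p = 0.0102 by edgeR). Ugt2b36 had 2.90 and 7.46 CPM in EtOH and 0 and 0.0375 CPM in 4OHT libraries, at least 49.1-fold lower, and Ugt2b5 had a mean of 5.74 CPM in EtOH and was at least 54.4-fold lower in 4OHT organoids. Ugt2b35 fell from a mean of 13.3 to 0.166 CPM.

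Sult1d1, a sulfotransferase of phenols and amines, had 9.16 and 18.0 CPM in EtOH and 0.0656 and 0.0750 CPM in 4OHT libraries, at least 129-fold lower against the floor of 3 counts per library (adjusted p = 0.00582 by edgeR). Sult1b1, which sulfates thyroid hormone, had 0.758 and 0.853 CPM in EtOH and 0 in both 4OHT libraries, at least 7.64-fold lower. Among the Ugt1 genes, Ugt1a7c had 1.32 and 0.719 CPM in EtOH and 0 in both 4OHT libraries, at least 9.66-fold lower (adjusted p = 0.0231 by edgeR), and Ugt1a6a was 0.976 ± 0.588 CPM in EtOH and 0.232 ± 0.0960 CPM in 4OHT organoids without being called (adjusted p = 0.111 by edgeR). Every library of these genes was low after 4OHT, and none overlapped between the groups. For Sult1d1 and Ugt1a7c this was a condition of their choice.

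The most abundant members were glutathione S-transferases, with Ugt2b34 at rank 7 per kilobase of exon in EtOH organoids. Per kilobase of exon, the highest members in EtOH organoids at 2 weeks were Gstm1 (781 CPM per kilobase), Gsta4 (697), Gstp1 (432) and Mgst3 (310). Gstm1, a mu-class enzyme, had 891 and 1400 CPM in EtOH and 415 and 479 CPM in 4OHT libraries and fell by 1.36 on the log2 scale (SE 0.24, adjusted p = 0.0262 by edgeR). Gsta4, which acts on the lipid peroxidation product 4-hydroxynonenal, had 735 and 1030 CPM in EtOH and 354 and 419 CPM in 4OHT libraries and fell by 1.19 (SE 0.20, adjusted p = 0.0240 by edgeR). Both genes were lower in each 4OHT library than in either EtOH library.

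Gstp1, the pi-class enzyme, had 558 and 777 CPM in EtOH and 364 and 382 CPM in 4OHT libraries and fell by 0.84 (SE 0.18, adjusted p = 0.0460 by edgeR). Gsta3 went from 231 and 217 CPM to 143 and 111 CPM and fell by 0.82, and Mgst3 went from 342 and 339 CPM to 195 and 207 CPM and fell by 0.76. Mgst1, a membrane-bound transferase and peroxidase, had 239 and 361 CPM in EtOH and 188 and 251 CPM in 4OHT libraries, which overlapped, and was not called (log2 fold change -0.45, SE 0.24, adjusted p = 0.275 by edgeR). Lower calls with smaller levels were Gsta1 (mean 8.64 to 0.895 CPM), Gstm3 (42.8 to 6.89 CPM), Gstm4 (75.0 to 23.6 CPM) and Gstt2 (45.1 to 26.5 CPM).

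In the omega class 1 member moved the other way. Gsto1, a glutathione-dependent reductase and dehydroascorbate reductase, had 541 and 396 CPM in EtOH and 815 and 821 CPM in 4OHT libraries and rose by 0.80 (SE 0.18, adjusted p = 0.0464 by edgeR). With this, Gsto1 had the highest level per kilobase of exon of all members in 4OHT organoids (404 CPM per kilobase), where Gstm1 had 303. The neighbouring Gsto2 had 1.62 and 1.35 CPM in EtOH and 3.22 and 5.70 CPM in 4OHT libraries, and was not called (log2 fold change 1.58, SE 0.39, adjusted p = 0.0627 by edgeR).

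**Figure D1:**
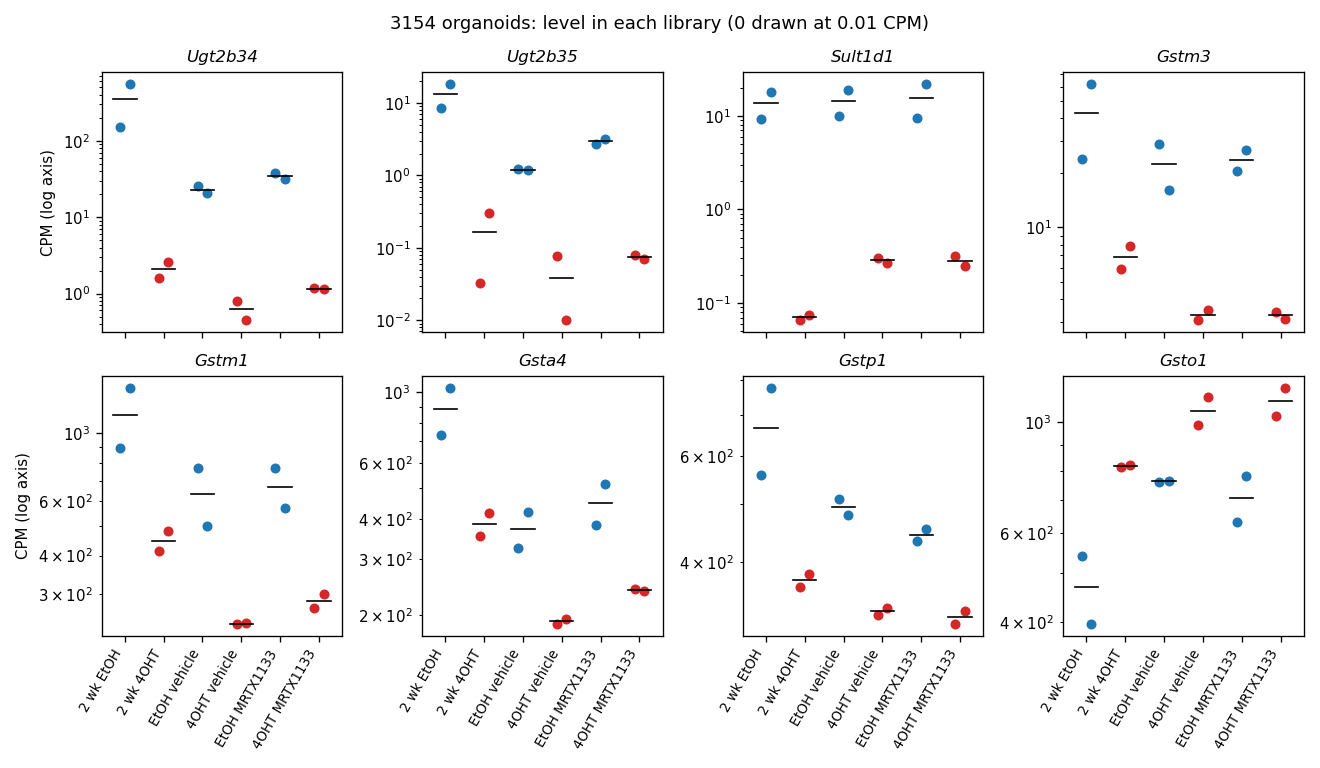
Levels of 8 members in each 3154 library (points, CPM on a log axis that differs between panels; bars are group means; EtOH in blue, 4OHT in red). Ugt2b34, Ugt2b35, Sult1d1, Gstm3, Gstm1, Gsta4 and Gstp1 were lower in 4OHT than in matched EtOH libraries in all 3 settings, and Gsto1 was higher.

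The 48 h experiment measured the deletion again, in organoids with vehicle or MRTX1133. Hnf4a was 225 ± 6.60 CPM (SD, n = 2) in EtOH with vehicle and 49.9 ± 0.677 CPM in 4OHT with vehicle, and 182 ± 3.02 against 27.5 ± 3.16 CPM with MRTX1133. With vehicle, 29 of 35 listed members were tested and 20 were called, 18 lower and 2 higher; of all genes, 31.0% were called, 15.7% lower and 15.3% higher. The members' median was -0.89, against 0.01 for all genes. With MRTX1133, 15 of 29 were called, 12 lower and 3 higher, against 27.7% of all genes, 14.5% lower and 13.2% higher, and the median was -0.49 against -0.01. Without the 4OHT vehicle replicate 1 or 2, the vehicle count was 11 or 10 (1965 or 1668 of all genes, against 4795), and without the 4OHT MRTX1133 replicate 1 or 2, the MRTX1133 count was 9 or 8 (1825 or 1745 of all genes, against 4279), lower calls being the majority each time.

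The 3 cluster members tested in this table were called lower in both settings; Ugt2b35 and Sult1d1 had under 10 counts in every 4OHT library and passed the filter through the EtOH groups, where they were higher. Ugt2b34 had 25.4 and 20.4 CPM in EtOH and 0.796 and 0.447 CPM in 4OHT with vehicle, and fell by 5.17 on the log2 scale (SE 0.27, adjusted p = 8.72e-05 by edgeR). With MRTX1133 it had 38.2 and 31.6 CPM in EtOH and 1.18 and 1.14 CPM in 4OHT libraries and fell by 4.91. Sult1d1 had 9.93 and 18.8 CPM in EtOH and 0.303 and 0.268 CPM in 4OHT with vehicle (log2 fold change -5.62, SE 0.60), and 9.34 and 21.7 against 0.315 and 0.248 CPM with MRTX1133 (-5.76, SE 0.59). Ugt2b35 had 1.22 and 1.17 CPM against 0.0758 and 0 CPM with vehicle, at least 9.67-fold lower, and 2.68 and 3.18 against 0.0788 and 0.0710 CPM with MRTX1133, at least 26.1-fold lower. For all 3 genes every 4OHT library was below every EtOH library, as their choice by size of change required within each setting.

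All 6 mu-class genes tested with vehicle were called lower, the pseudogene Gstm2-ps1, which may share reads with Gstm2, among them. With MRTX1133, 4 of 6 were called lower, and at 2 weeks 3 of 7. Of all genes, 15.7% were lower with vehicle, 14.5% with MRTX1133 and 5.78% at 2 weeks. Gstm3 had 28.9 and 16.1 CPM in EtOH and 3.07 and 3.48 CPM in 4OHT with vehicle and fell by 2.78 (SE 0.30, adjusted p = 0.000719 by edgeR), and with MRTX1133 it went from 20.5 and 26.7 to 3.43 and 3.12 CPM and fell by 2.85. Gstm2 fell from a mean of 12.7 to 3.02 CPM with vehicle and from 16.3 to 4.03 CPM with MRTX1133. Gstm1 had 770 and 499 CPM in EtOH and 240 and 241 CPM in 4OHT with vehicle (log2 fold change -1.40, SE 0.22, adjusted p = 0.00332 by edgeR), and 768 and 570 against 271 and 300 CPM with MRTX1133 (-1.23, SE 0.22). The 4OHT libraries of these genes lay close together and below both EtOH libraries.

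Among the alpha, pi and microsomal enzymes, Gsta4 had 325 and 422 CPM against 188 and 195 CPM with vehicle and fell by 0.96 (SE 0.18), and 384 and 516 against 241 and 238 CPM with MRTX1133 and fell by 0.91. Gsta3 had 99.8 and 113 against 59.2 and 56.8 CPM with vehicle and fell by 0.88, and 119 and 125 against 89.9 and 83.4 CPM with MRTX1133 and fell by 0.49. Gstp1 had 509 and 479 against 327 and 336 CPM with vehicle and fell by 0.58, and 434 and 453 against 316 and 332 CPM with MRTX1133 and fell by 0.45. These 3 genes were lower in every 4OHT library than in the matched EtOH libraries.

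Mgst1 had 115 and 95.0 CPM in EtOH and 55.6 and 55.0 CPM in 4OHT with vehicle and fell by 0.93 (adjusted p = 0.00782 by edgeR), whereas with MRTX1133 it had 119 and 97.2 against 95.5 and 71.2 CPM and was not called (log2 fold change -0.37, adjusted p = 0.163 by edgeR). Mgst3 had 109 and 164 against 131 and 136 CPM with vehicle and 121 and 138 against 116 and 118 CPM with MRTX1133 and was called in neither. Gstp2, whose reads may be shared with Gstp1, had 124 and 120 against 72.1 and 31.2 CPM with vehicle, and 101 and 112 against 67.5 and 29.8 CPM with MRTX1133; its replicates in 4OHT differed by more than 2-fold and it was not called (adjusted p = 0.0641 and 0.0891 by edgeR), although DESeq2 called it in both (adjusted p = 0.0109 and 0.0279).

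Both omega-class genes were called higher at 48 h. Gsto2 had 0.968 and 1.76 CPM in EtOH and 6.45 and 7.01 CPM in 4OHT with vehicle and rose by 2.30 (SE 0.28, adjusted p = 0.00116 by edgeR), and with MRTX1133 it had 1.61 and 1.85 against 8.56 and 9.51 CPM and rose by 2.38. Gsto1 had 760 and 764 against 985 and 1120 CPM with vehicle (log2 fold change 0.47, SE 0.14, adjusted p = 0.0411 by edgeR) and 632 and 779 against 1030 and 1170 CPM with MRTX1133 (0.64, SE 0.14). Gstk1, the kappa-class enzyme of mitochondria and peroxisomes, rose with MRTX1133 from 60.5 and 73.2 to 103 and 95.7 CPM (0.57, adjusted p = 0.0438 by edgeR); at 2 weeks its log2 fold change was -0.66 (adjusted p = 0.0736). Between the 2-week and the 48 h vehicle comparisons, which share no library, 11 members were called lower in both, 68.8% of the 16 and 61.1% of the 18: Gsta1, Gsta3, Gsta4, Gstm1, Gstm3, Gstm4, Gstp1, Gstt2, Sult1d1, Ugt2b34 and Ugt2b35. Gsto1 was called higher in both. Over all genes, 553 were called lower in both, 66.1% of 837 at 2 weeks and 22.8% of 2430 at 48 h.

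**Figure D2:**
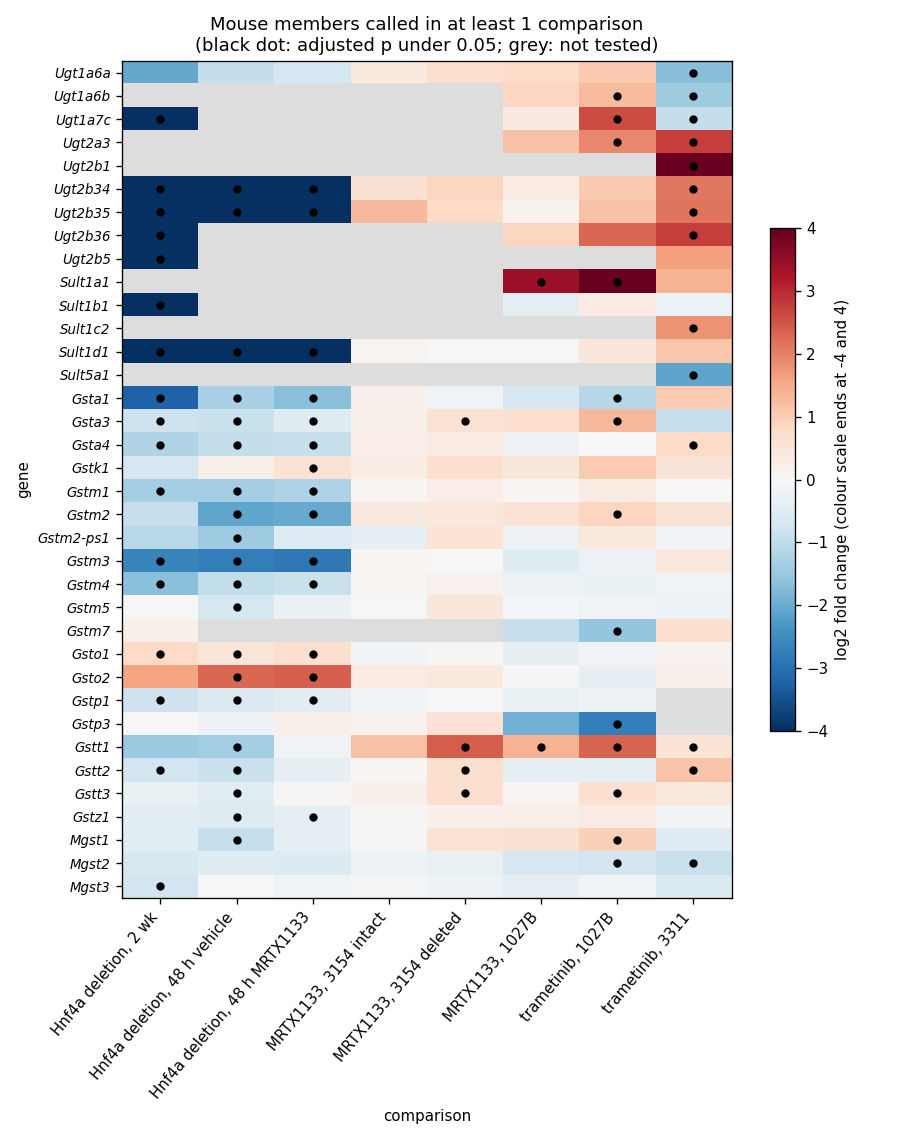
Log2 fold change (colour, scale ended at -4 and 4) of the 36 mouse members called in at least 1 of 8 comparisons (columns); black dots mark calls and grey cells members not tested. Calls in the 3 deletion columns were 16 lower and 1 higher, 18 lower and 2 higher, and 12 lower and 3 higher, from left to right; Ugt2b34, Ugt2b35 and Sult1d1 were lower in all 3, and Ugt2b34 and Ugt2b35 were higher with trametinib in 3311.

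Genes that supply or export conjugates were read from fixed lists. In these lists the background is the share of all genes called lower, 5.78% at 2 weeks, 15.7% at 48 h with vehicle and 14.5% with MRTX1133. Of 9 genes for the supply and transport of UDP-glucuronate and PAPS and the removal of the groups, 3 were called lower at 2 weeks, 5 at 48 h with vehicle and 5 with MRTX1133, and none higher; Ugp2, which makes UDP-glucose, fell from 262 ± 18.1 to 95.4 ± 0.130 CPM at 2 weeks, Papss2, which makes PAPS, from 193 ± 18.9 to 74.8 ± 27.3 CPM and Ugdh, which makes UDP-glucuronate, from 493 ± 38.6 to 245 ± 4.21 CPM. Of 11 genes for the supply or breakdown of glutathione, 4 were called lower and none higher at 2 weeks. At 48 h, 7 were lower and 1 higher with vehicle, and 6 lower and 1 higher with MRTX1133. At 2 weeks Ggt1, which breaks down extracellular glutathione, fell from 44.9 ± 48.6 to 0.415 ± 0.110 CPM. Chac1, which degrades glutathione in the cell, fell from 52.5 ± 23.4 to 15.1 ± 2.92 CPM, and Gss, the synthetase, from 94.5 ± 2.32 to 43.7 ± 3.52 CPM. Of 6 exporters tested at 2 weeks 4 were called lower, and of 5 tested at 48 h 2 were lower with vehicle and 2 with MRTX1133, none being higher; at 2 weeks they included Abcc3 (519 ± 96.9 to 213 ± 50.7 CPM), and of 16 known NRF2 targets 3 were called lower at 2 weeks, 5 at 48 h with vehicle and 4 with MRTX1133, and none higher. Of 15 xenobiotic regulators and their readouts tested, 3 were called lower, Hnf4a itself included, and 1 higher at 2 weeks, and of 14 tested at 48 h 4 were lower and 1 higher with vehicle and 4 lower and none higher with MRTX1133; at 2 weeks Cyp1b1, which oxidises steroids and hydrocarbons, rose from 136 ± 34.4 to 282 ± 0.460 CPM, and Nr1i2, which encodes the pregnane X receptor, fell from 24.4 ± 5.81 to 3.20 ± 0.671 CPM at 2 weeks.

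Markers of other cells also moved with the deletion. The summed club and ciliated markers were 35.9 to 47.0 CPM in EtOH and 142 to 165 CPM in 4OHT libraries at 2 weeks, with 2 of 4 called higher (Scgb1a1 and Cyp2f2), and 35.4 to 70.4 against 428 to 637 CPM at 48 h with vehicle, with 1 of 4 called higher (Scgb1a1). The summed immune markers were 18.6 to 44.7 CPM in EtOH and 10.1 to 13.5 CPM in 4OHT libraries at 2 weeks, with Csf1r called lower, and the summed endothelial markers 5.07 to 5.93 against 2.17 to 2.51 CPM, with Pecam1 called lower. With MRTX1133 the club and ciliated markers summed to 145 to 196 CPM in EtOH and 950 to 966 CPM in 4OHT libraries, with 1 of 4 called higher (Scgb1a1), and the fibroblast markers to 0.115 to 0.121 against 0.426 to 0.473 CPM, with Col1a1 called higher. Their part in the enzymes' differences was not tested.

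The reverse experiment raised HNF4A in H1651. HNF4A was 41.5 ± 7.89 CPM (SD, n = 2) without and 95.6 ± 1.73 CPM with doxycycline. Of 38 members listed, 26 were tested and 4 were called, all higher; of all genes in that table, 1.42% passed, 1.04% higher and 0.386% lower. The members' median was 0.21, against 0.00 for all genes. UGT1A9 had 0.371 and 0.534 CPM without and 2.04 and 1.81 CPM with doxycycline and rose by 2.07 (SE 0.35, adjusted p = 0.0467 by edgeR), and UGT1A6, a glucuronosyltransferase of small phenols, had 1.40 and 1.41 against 4.44 and 3.58 CPM and rose by 1.51 (SE 0.24, adjusted p = 0.0389). UGT1A9 had 9 and 14 counts without doxycycline, and with at least 10 counts required in every library 3 members were called. Both libraries with doxycycline lay above both without for each gene, which was a condition of their choice. As the UGT1A genes share exons, their separate values are uncertain.

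GSTM4 had 32.3 and 29.1 CPM without and 44.8 and 45.0 CPM with doxycycline and rose by 0.55 (SE 0.09, adjusted p = 0.0356 by edgeR), and MGST1 had 241 and 244 against 313 and 339 CPM and rose by 0.43 (SE 0.07, adjusted p = 0.0433). MGST3 had 91.6 and 79.6 against 113 and 114 CPM and missed the threshold (0.41, adjusted p = 0.0848 by edgeR, though 0.0236 by DESeq2), and GSTP1 had 457 and 501 against 479 and 575 CPM, which overlapped. Summed epithelial markers were 4450 to 4460 CPM without and 5750 to 6220 CPM with doxycycline, with 2 of 6 called higher (KRT8 and KRT18), and summed fibroblast markers were 663 to 757 CPM without and 413 to 455 CPM with it, with 1 of 6 called lower (COL3A1); their part was not tested. Without the no-doxycycline replicate 2 no member was called, and without the doxycycline replicate 1 the count was 1, while 232 and 280 genes in all were called, against 247.

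MRTX1133 moved few members in 3154 organoids. With Hnf4a intact no member of 29 was called, while 0.349% of all genes were, 0.317% higher and 0.0323% lower; 3 members had an unadjusted p under 0.05, against 1820 genes, and DESeq2 also called 0 members. Those 3 were Gstt1 (4.52 to 10.2 CPM in group means), Ugt2b34 (22.9 to 34.9 CPM) and Ugt2b35 (1.20 to 2.93 CPM). With Hnf4a deleted 4 members were called, all higher, against 4.64% of all genes, 2.10% higher and 2.54% lower, and the members' median was 0.41 against 0.00 for all genes.

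Of these 4, 3 were theta-class enzymes, which act on small halogenated compounds, and they were all the theta genes tested. Gstt1 had 2.09 and 1.29 CPM with vehicle and 10.7 and 7.60 CPM with MRTX1133 in 4OHT organoids and rose by 2.42 (SE 0.37, adjusted p = 0.0198 by edgeR). Gstt3 had 24.6 and 24.1 against 41.6 and 36.6 CPM and rose by 0.68, and Gstt2 had 23.0 and 23.8 against 39.3 and 34.0 CPM and rose by 0.65. Gsta3 had 59.2 and 56.8 against 89.9 and 83.4 CPM and rose by 0.58 (adjusted p = 0.0420 by edgeR). The libraries of the 2 groups did not overlap for any of the 4, a condition of their choice. Leaving out any of these libraries, so that another stood alone, ended the members' calls and nearly all calls among all genes. Leaving out either EtOH MRTX1133 library, which only lends its spread, ended most of the members' calls. The summed club and ciliated markers were 428 to 637 CPM with vehicle and 950 to 966 CPM with MRTX1133 in 4OHT organoids, with 1 of 4 called higher (Cyp2f2), and their part was not tested.

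Whether the response to MRTX1133 differed between intact and deleted organoids was tested as an interaction. No member and 0% of all genes were called in either direction by edgeR; 3 members (Gstt1, Gstt2 and Gstt3) and 1150 genes had an unadjusted p under 0.05, and DESeq2 called 0 members and 30 genes. For Gstt1 the log2 fold change was 1.17 (SE 0.34) with Hnf4a intact and 2.42 (SE 0.37) with it deleted, a difference of 1.25 (SE 0.49, adjusted p = 0.619 by edgeR). Among abundant members that were not called, Gsto1 had 760 and 764 CPM with vehicle and 632 and 779 CPM with MRTX1133 in EtOH organoids (log2 fold change -0.11, SE 0.14), and Gstp1 had 327 and 336 against 316 and 332 CPM in 4OHT organoids (-0.03, SE 0.11).

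In 1027B organoids, trametinib gave 13 calls among 36 members tested (43 listed), 9 higher and 4 lower; of all genes 26.7% were called, 13.5% higher and 13.2% lower, and the members' median was 0.34 against -0.01. Without vehicle replicate 1 the count was 6, and without trametinib replicate 1 it was 5, with 2368 and 1336 genes in all against 3880. Hnf4a fell from 459 ± 17.7 to 227 ± 37.7 CPM (SD, n = 2). Sult1a1, a phenol sulfotransferase, had 0.0968 and 0.0542 CPM with vehicle and 2.45 and 1.59 CPM with trametinib, at least 13.1-fold higher (adjusted p = 0.00293 by edgeR). With 3 counts or fewer in each vehicle library, it passed the filter on low counts only through the inhibitor groups, where it was high. Gstt1 had 11.9 and 20.9 CPM with vehicle and 84.9 and 78.6 CPM with trametinib and rose by 2.32 (SE 0.25, adjusted p = 0.00176). Neither gene overlapped between the groups, a condition of being chosen by size of change.

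The other trametinib calls in 1027B ran in both directions. Ugt2a3, a bile acid glucuronosyltransferase, had 1.31 and 1.14 CPM with vehicle and 6.01 and 3.26 CPM with trametinib and rose by 1.92 (SE 0.41, adjusted p = 0.0171 by edgeR). Gsta3 had 37.9 and 53.6 against 122 and 104 CPM and rose by 1.31 (SE 0.18), Mgst1 had 71.2 and 127 against 223 and 159 CPM and rose by 0.95 (SE 0.28), and Gstm2 had 45.2 and 73.1 against 119 and 92.9 CPM and rose by 0.85 (SE 0.23). Lower were Gstp3, with 2.76 and 2.44 against 0.178 and 0.606 CPM (4 and 13 counts with trametinib; log2 fold change -2.72, SE 0.54), Gstm7, with 2.66 and 4.93 against 1.47 and 1.12 CPM (-1.54), Gsta1, with 15.4 and 22.4 against 8.28 and 8.72 CPM (-1.15), and Mgst2, with 34.5 and 30.9 against 22.6 and 17.0 CPM (-0.72). None of these overlapped between the groups, which for members chosen by size of change was a condition of the choice.

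Of the abundant members of 1027B, 5 were not called with trametinib. Gstm1 had 1380 and 2220 CPM with vehicle and 2100 and 2300 CPM with trametinib, Gsto1 had 1690 and 1510 against 1210 and 1740 CPM, Gsta4 had 481 and 618 against 577 and 499 CPM, Gstp1 had 174 and 212 against 151 and 186 CPM, and Mgst3 had 103 and 126 against 99.4 and 107 CPM. All 5 overlapped between the groups. The summed club and ciliated markers were 1.06 to 7.79 CPM with vehicle and 152 to 282 CPM with trametinib, 2 of 3 tested being called (Cyp2f2 and Scgb1a1). Epithelial markers summed to 9350 to 9490 and 7830 to 8700 CPM, with Cdh1 and Nkx2-1 called higher and Krt19 lower, and immune markers to 7.85 to 8.27 and 6.62 to 7.26 CPM, with Csf1r called higher and Ptprc lower. The part of these markers was not tested.

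MRTX1133 at 20 nM in 1027B called 2 of 36 members (5.56%), both higher, a share near the 6.27% of all genes (3.01% higher and 3.26% lower). They were also higher with trametinib, but both comparisons share the vehicle libraries. Gstt1 had 41.5 and 44.9 CPM with MRTX1133 (log2 fold change 1.40, SE 0.24, adjusted p = 0.0249 by edgeR), and Sult1a1 had 0.854 and 0.897 CPM, at least 5.69-fold above vehicle (adjusted p = 0.0276), with the same limit on how it passed the filter; 1 member was called with at least 10 counts in every library. Leaving out either MRTX1133 library ended both calls, leaving out vehicle replicate 1 or trametinib replicate 1 left 1, and DESeq2 called 6, 3 higher and 3 lower. The summed club and ciliated markers were 69.7 to 80.7 CPM with MRTX1133 against 1.06 to 7.79 CPM with vehicle, with 1 of 3 called higher (Cyp2f2), and their part was not tested. Set directly against each other, trametinib and MRTX1133 differed in 0 members and 0% of all genes in either direction by edgeR. DESeq2 called 3 members, all lower, and 675 of 16553 genes. With a replicate block edgeR called 5 members, all lower, and 2050 genes. Without the block, 6 members and 2357 genes had an unadjusted p under 0.05 by edgeR. All 6 were lower with MRTX1133, among them Gstt1 (log2 fold change -0.92, SE 0.23, adjusted p = 0.154 by edgeR) and Gstt3 (-0.53, SE 0.10, adjusted p = 0.115). The doses differ, so the values stand side by side.

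The abundant members with MRTX1133 in 1027B were Gstm1 at 1650 and 2160 CPM, Gsto1 at 1130 and 1390 CPM, Gsta4 at 477 and 470 CPM, Gstp1 at 150 and 170 CPM, Mgst1 at 140 and 161 CPM and Mgst3 at 83.7 and 94.2 CPM, none of them called. Gsto1, Gsta4, Gstp1 and Mgst3 were below both vehicle libraries, and Mgst1 was above both. Gstm1 overlapped with vehicle.

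In the 3311 line, trametinib called 14 of 39 members tested (41 listed; Gstp genes were not analysed here), 9 higher and 5 lower, a share of 35.9% close to the 39.0% of all genes (19.4% higher and 19.6% lower). Without vehicle replicate 1 the count was 6, with 4424 genes in all against 5938. By family, 5 of 6 Ugt2 genes were called higher and none lower, 3 of 5 Ugt1 genes lower and none higher, 2 of 3 theta-class and 1 of 4 alpha-class genes higher, 1 of 3 Mgst genes lower, 1 of 6 sulfotransferases higher and 1 lower, and none of 8 mu-class and 2 omega-class genes. Sult1b1 and Sult1d1, in the chromosome 5 cluster with the Ugt2 genes, were not called, and a difference between families was not tested. Hnf4a was 427 ± 73.9 CPM with vehicle and 327 ± 89.8 CPM with trametinib and was not called (adjusted p = 0.208 by edgeR). Summed immune markers were 9.55 to 15.8 CPM with vehicle and 21.7 to 28.7 CPM with trametinib (Csf1r called higher and Cd68 lower), club and ciliated markers 0.334 to 0.398 and 2.21 to 2.79 CPM (Scgb1a1 higher), and fibroblast markers 21.5 to 26.3 and 17.3 to 17.5 CPM (Col1a1 higher and Pdgfra lower). Epithelial markers summed to 7780 to 9870 and 6360 to 8090 CPM (Krt18 lower); their part was not tested.

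Ugt2b34 had 215 and 334 CPM with vehicle and 838 and 1530 CPM with trametinib and rose by 2.11 (SE 0.33, adjusted p = 0.00397 by edgeR); with 276 CPM per kilobase of exon it followed Gstm1 (517) and Gsta4 (403) after trametinib. Ugt2b36 had 0.557 and 1.39 against 3.76 and 9.55 CPM and rose by 2.77 (SE 0.60), Ugt2a3 had 0.111 and 0.358 against 0.896 and 2.32 CPM (3 and 9 counts with vehicle, so that it passed the filter through trametinib and its fitted rise of 2.76 is imprecise), and Ugt2b35 had 1.45 and 2.79 against 5.02 and 13.5 CPM and rose by 2.13. Ugt2b1 was at least 5.78-fold higher, from 0.0385 to 0.667 CPM, and passed the filter only through the trametinib group. In each of these 4 genes given by library, trametinib replicate 2 was the highest library. The groups did not overlap, a condition of their choice.

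The 3 Ugt1 genes called lower included an abundant one. Ugt1a7c had 138 and 154 CPM with vehicle and 53.6 and 96.6 CPM with trametinib and fell by 0.96 (SE 0.26, adjusted p = 0.0262 by edgeR), Ugt1a6a had 9.70 and 9.20 against 2.40 and 3.42 CPM and fell by 1.70 (SE 0.29, adjusted p = 0.00510), and Ugt1a6b had 3.72 and 2.79 against 0.825 and 1.60 CPM and fell by 1.43 (SE 0.44). Mgst2, which can make leukotriene C4, had 143 and 126 against 64.5 and 79.3 CPM and fell by 0.90 (SE 0.16, adjusted p = 0.00546). Gsta4 had 260 and 324 against 375 and 646 CPM and rose by 0.80, and Gstt1 had 78.5 and 58.5 against 106 and 96.0 CPM and rose by 0.56. Not called were Gstm1 (763 and 792 against 522 and 1000 CPM), Gsto1 (134 and 142 against 133 and 172 CPM) and Mgst3 (231 and 260 against 140 and 195 CPM, adjusted p = 0.0527 by edgeR and 0.0261 by DESeq2).

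**Figure D3:**
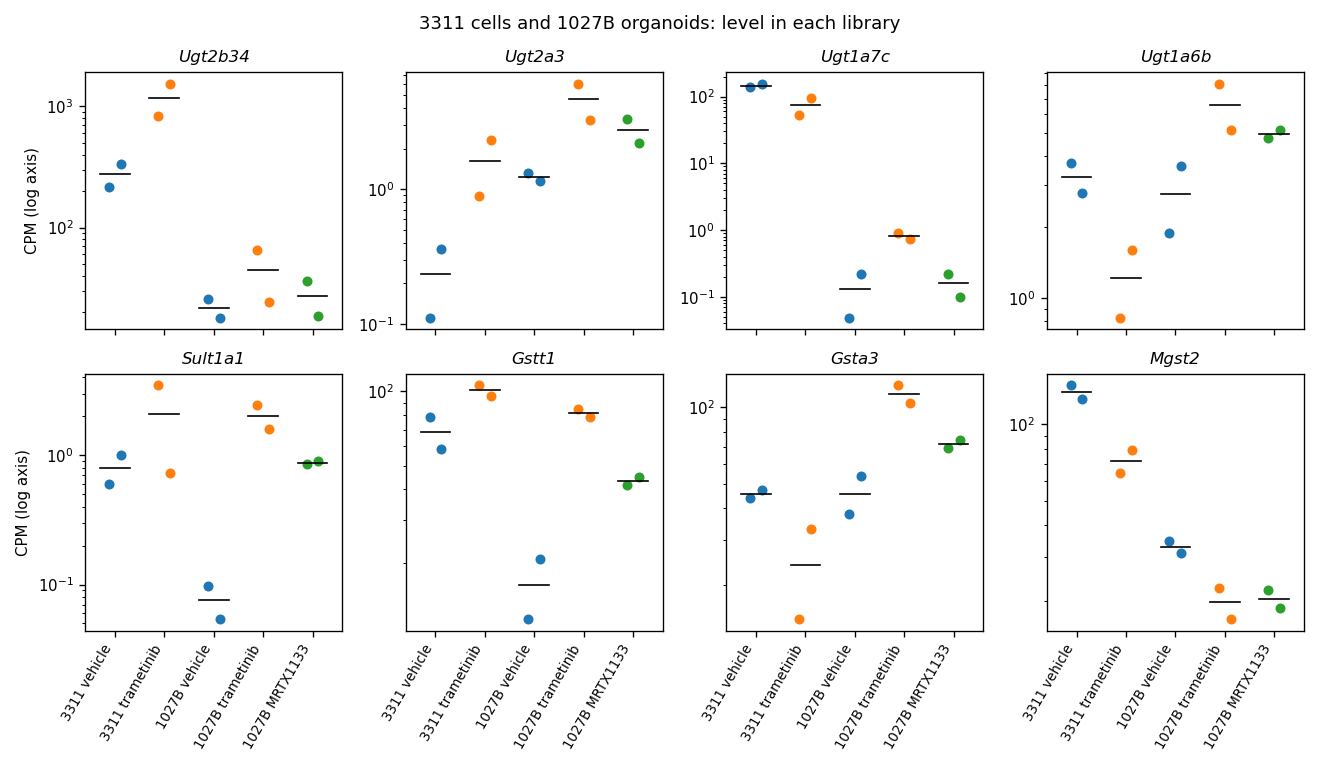
Levels of 8 members in each library (points, CPM on a log axis that differs between panels; bars are group means) of 3311 cells and 1027B organoids with vehicle (blue), trametinib (orange) or MRTX1133 (green). Ugt1a7c lay between 138 and 154 CPM in 3311 vehicle libraries and below 1 CPM in all 1027B libraries, where its vehicle libraries held 1 and 4 counts.

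The 3311 and 1027B responses to trametinib were compared in a joint fit of both tables, chosen after the separate results had been seen. Of 38 members tested, 8 differed, 6 with a lower and 2 with a higher log2 fold change in 3311; of all genes 14.3% differed, 7.17% lower and 7.12% higher. Fewer members, and also fewer genes in all, differed without 1027B vehicle replicate 1, 1027B trametinib replicate 1 or 3311 vehicle replicate 1. Ugt1a7c had a response of -0.96 (SE 0.26) in 3311 and 2.61 (SE 0.72) in 1027B, from levels of 138 and 154 CPM in 3311 and 0.0484 and 0.217 CPM in 1027B with vehicle (difference -3.59, SE 0.78, adjusted p = 0.0169 by edgeR). The 1027B vehicle libraries held 1 and 4 counts of Ugt1a7c, so the gene passed the filter there through trametinib, and the 1027B response and the difference are no measure of size. Ugt1a6a (difference -2.76, adjusted p = 0.0111) and Ugt1a6b (-2.70, adjusted p = 0.0188) likewise had opposite signs.

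Gsta3 had 44.0 and 47.1 CPM with vehicle and 14.7 and 33.3 CPM with trametinib in 3311, not called there (log2 fold change -0.93, adjusted p = 0.0678 by edgeR), and its response differed from that in 1027B by -2.24 (SE 0.44, adjusted p = 0.0120). Gstt1 rose in both cultures, by 0.56 in 3311 and 2.32 in 1027B (difference -1.77, SE 0.32, adjusted p = 0.00864 by edgeR). Gstt2 (difference 1.51, SE 0.26, adjusted p = 0.00667) and Gstm7 (2.18, SE 0.52, adjusted p = 0.0239) had a higher response in 3311. The Ugt2 genes did not differ by this test; for Ugt2b34 the difference was 1.07 (SE 0.68, adjusted p = 0.317 by edgeR). Dose (50 nM against 10 nM), culture form and line differ together and cannot be told apart.

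**Figure D4:**
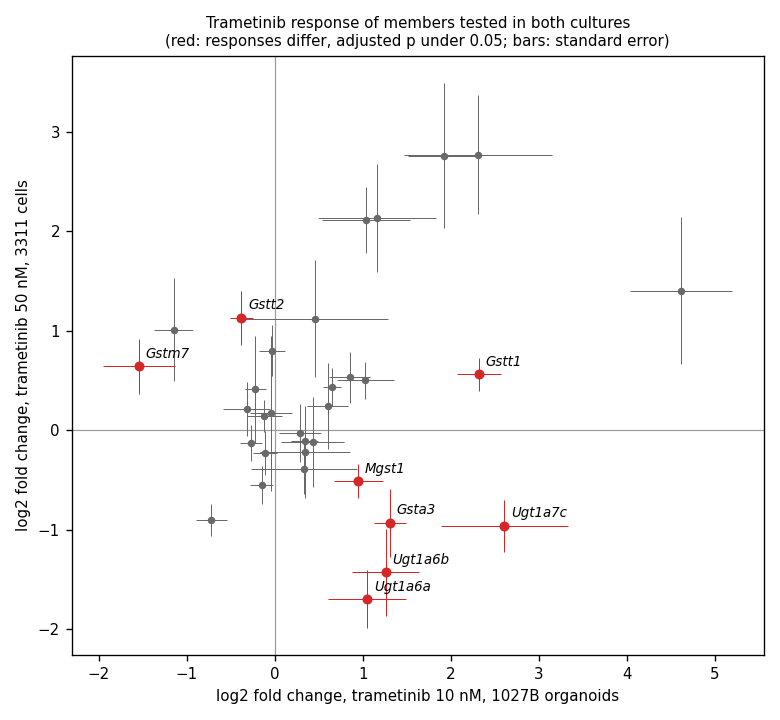
Log2 fold change with trametinib in 1027B organoids (x axis) and 3311 cells (y axis) for the 33 members tested in both (points; bars are 1 SE); red marks the 8 whose responses differed in the joint fit. The Ugt1a genes, Gsta3 and Mgst1 lie at positive values in 1027B and negative values in 3311.

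In H358, trametinib called 11 of the 20 members tested (46 listed, many with no count), 9 higher and 2 lower, against 46.8% of all genes, 23.5% higher and 23.2% lower. HNF4A had 0 counts in all 4 H358 libraries. SULT1E1, the estrogen sulfotransferase, had 0.829 and 0.448 CPM with vehicle and 33.3 and 23.7 CPM with trametinib and rose by 5.45 (SE 0.29, adjusted p = 1.17e-05 by edgeR). GSTK1 had 51.8 and 43.9 against 162 and 123 CPM and rose by 1.58 (SE 0.15, adjusted p = 0.000145). Every trametinib library lay above every vehicle library for both genes, as their choice by size of change required.

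UGT2B17 and UGT2B15, glucuronosyltransferases of androgens whose reads may be shared, rose together: UGT2B17 had 0.388 and 0.657 against 2.56 and 2.79 CPM (log2 fold change 2.36, SE 0.33) and UGT2B15 had 0.440 and 0.627 against 2.32 and 2.16 CPM (2.08, SE 0.31). Other higher calls were SULT2B1 (mean 5.14 to 10.9 CPM), MGST3 (27.7 to 44.3 CPM), GSTM4 (0.741 to 1.79 CPM), GSTM2 (0.724 to 2.04 CPM) and SULT1A2 (0.277 to 0.687 CPM). GSTO1 had 32.7 and 34.3 against 14.5 and 15.7 CPM and fell by 1.15 (SE 0.13, adjusted p = 0.000249 by edgeR), and SULT1B1 fell from a mean of 0.657 to 0.0626 CPM (4 and 1 counts with trametinib). The abundant GSTP1 (292 and 346 against 287 and 301 CPM) and MGST1 (82.5 and 94.4 against 96.5 and 112 CPM) were not called.

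In the fixed lists for H358, where 23.5% of all genes were called higher and 23.2% lower, 9 of 11 genes tested from a list of xenobiotic regulators and genes used as their readouts were called higher and none lower. They were AHR, ARNT, AHRR, TIPARP, RXRA, BACH1, PPARA and the enzymes CYP1B1 and CYP1A1, the last a target of the aryl hydrocarbon receptor (1.24 ± 0.733 to 35.6 ± 16.4 CPM, SD, n = 2). Of 11 genes for the supply or breakdown of glutathione 9 were called lower and 1 higher, with the cystine transporter SLC7A11 at 68.1 ± 0.448 and 15.8 ± 1.35 CPM. Of 16 NRF2 targets 8 were called lower and 1 higher. In 3311, 9 of 16 NRF2 targets were lower and 2 higher (19.6% of all genes lower), and in 1027B 6 of 16 were lower and none higher with trametinib (13.2% of all genes lower). From the regulator list 1 of 15 was higher and 4 lower in 3311, and 2 of 14 were higher and 4 lower in 1027B. With trametinib Slc7a11 fell from 59.8 ± 1.33 to 6.45 ± 2.23 CPM in 3311 and from 314 ± 46.8 to 40.1 ± 5.44 CPM in 1027B. Summed fibroblast markers were 41.2 to 50.0 CPM with vehicle and 246 to 348 CPM with trametinib in H358, with 4 of 6 tested called higher, DCN being at 0 in both vehicle libraries. Epithelial markers summed to 5460 to 5660 and 3770 to 4060 CPM, with EPCAM, KRT8 and KRT18 called lower and CDH1 and NKX2-1 higher, and CDH5 (endothelial), PTPRC (immune) and FOXJ1 (ciliated) were also called higher. The part of these markers was not tested.

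In H1651, trametinib called no member of 25 tested (46 listed) and 0% of all genes in either direction by edgeR; 3 members and 597 genes had an unadjusted p under 0.05, and DESeq2 called 0 members and 47 genes. Without vehicle replicate 1, 1 member was called. HNF4A was 48.2 ± 14.3 CPM with vehicle and 46.1 ± 18.1 CPM with trametinib (SD, n = 2). GSTP1 had 478 and 527 CPM with vehicle and 502 and 602 CPM with trametinib, and MGST1 had 200 and 186 against 204 and 195 CPM, both overlapping. GSTM4 had 26.7 and 25.2 against 31.7 and 33.0 CPM, a log2 fold change of 0.32 (SE 0.10) with an adjusted p of 0.999 by edgeR.

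A joint fit of the H358 and H1651 tables, also chosen after the separate results had been seen, tested whether their responses to 20 nM trametinib differed. Of 31 members tested 5 differed, 4 with a higher and 1 with a lower response in H358, against 19.3% of all genes, 9.43% higher and 9.86% lower; the count was 3 without H1651 vehicle replicate 1. Among the 4 was SULT1E1, which was not tested in the H1651 table alone, with 0 to 4 counts in each library there; it entered the joint fit through H358, and its fitted difference (6.17, SE 1.27, adjusted p = 0.0118 by edgeR) rests on that near-floor arm and is no measure of size. The others were GSTK1 (1.46, SE 0.22), GSTM4 (0.97, SE 0.24) and MGST3 (0.68, SE 0.13), and GSTO1 was lower (-1.08, SE 0.14, adjusted p = 0.00168 by edgeR). GSTO1 had 58.0 and 53.6 CPM with vehicle and 54.2 and 53.7 CPM with trametinib in H1651.

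**Figure D5:**
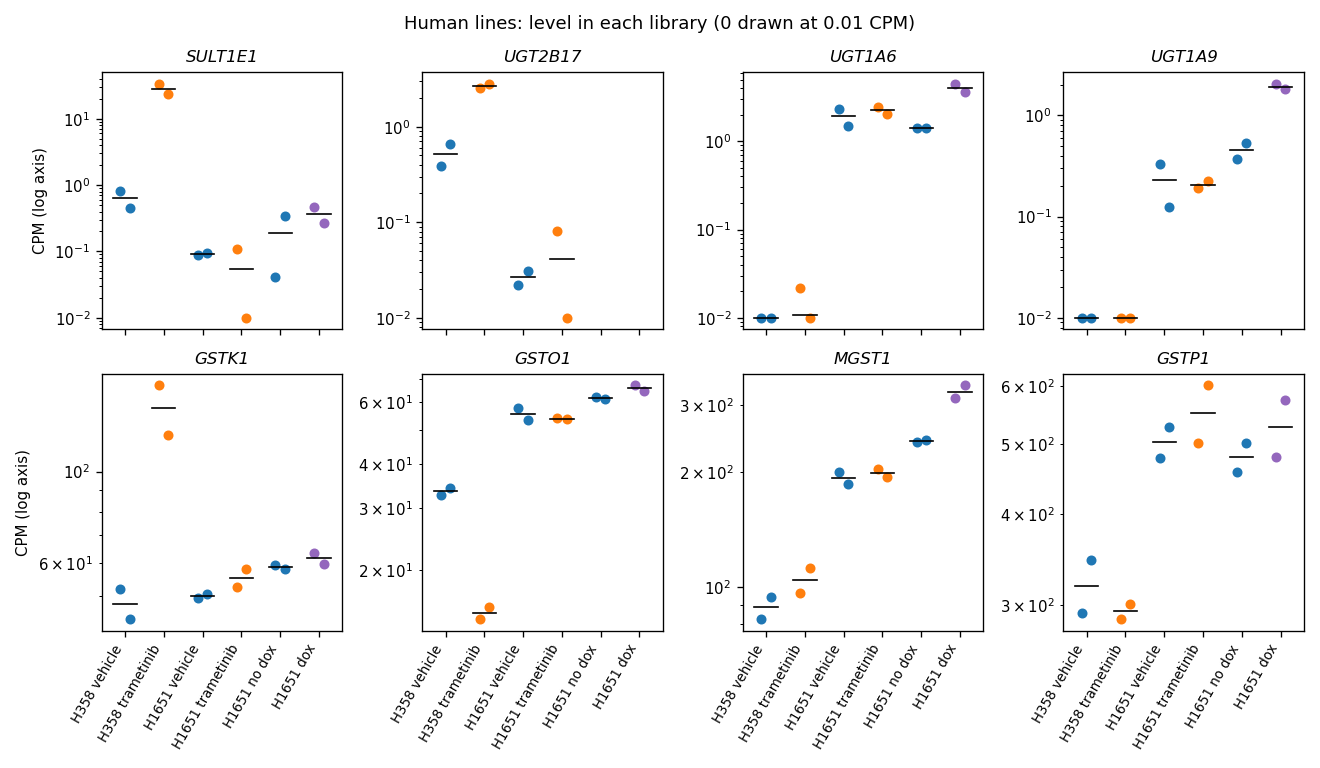
Levels of 8 members in each library (points, CPM on a log axis that differs between panels; bars are group means; 0 is drawn at 0.01) of H358 and H1651 with vehicle (blue) or trametinib (orange), and of H1651 without (blue) or with (purple) doxycycline; UGT2B17 was not analysed in the doxycycline table. SULT1E1 rose from below 1 to 23.7 and 33.3 CPM in H358 and stayed below 0.5 CPM in all H1651 libraries.

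The mouse members called in both directions in different comparisons were Gsta3, Gsta4, Gstm2, Gstt1, Gstt2, Gstt3, Mgst1, Ugt1a6b, Ugt1a7c, Ugt2b34, Ugt2b35 and Ugt2b36. Ugt2b34, Ugt2b35 and Ugt2b36 were lower after Hnf4a deletion and higher with trametinib in 3311. Gsta3, Gstt1 and Gstt3 were lower after deletion at 48 h with vehicle, and higher with MRTX1133 in deleted organoids (a comparison that shares the 4OHT vehicle libraries) and with trametinib in 1027B. Gstt1 was the member called in most inhibitor comparisons, higher in 4 of the 5 mouse comparisons with an inhibitor, the exception being MRTX1133 in intact 3154 organoids (log2 fold change 1.17, adjusted p = 0.242 by edgeR). Mgst2 was the 1 member lower with trametinib in both 3311 and 1027B, 20.0% of 5 and 25.0% of 4. Gstt1 and Ugt2a3 were higher in both, 22.2% of 9 in each culture. Over all genes, 984 were lower in both, 33.0% of 2982 in 3311 and 51.3% of 1917 in 1027B. Higher in both were 841 genes, 28.5% of 2956 and 42.8% of 1963.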

How the data were processed

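Poly(A) RNA was sequenced as paired reads from directional libraries, per the labels. The authors deposited raw counts per gene in 7 tables, 1 per experiment; the submitters' processing notes name cutadapt 3.5, STAR 2.7.6a, featureCounts 1.6.3 and the builds mm10, mm39 and hg38, without saying which build made which mouse table or whether strand was used in counting. Every per-sample column was mapped to its sample by name; the 3311 columns call the vehicle DMSO.

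Members were taken by gene name. The members and lists were chosen with earlier results of these data known. Each table was fitted with edgeR 4.0.16 in R 4.3.3 (filterByExpr, TMM, quasi-likelihood test, groups as the only term, all libraries of the table), with Benjamini-Hochberg adjustment over all genes; the standard error is the fold change divided by the root of the F statistic. DESeq2 1.42.0, other scalings and filters, a replicate block and leaving out each library were alternatives. On simulated counts with 200 genes changed 3-fold, between 89.0% and 94.0% were recovered at this size. Of the calls, 2.16% to 5.21% were unchanged genes. Every simulated gene had the same spread and smaller changes were not simulated, so recovery in the data may be lower. Members given by library were, per comparison, up to 4 called members in each direction with the largest change among those with at least 1 CPM and no overlap, and every member with at least 100 CPM in a group. Lack of overlap was thus a condition for members chosen by size of change, and is no support for their calls. Folds against a group at or under 3 counts per library are lower bounds. Replicates differed beyond counting noise in every group. Some alleles and genes are not reported here.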

Additional observations from a re-analysis of the deposited data

Results flagged for a closer look

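In the joint fit of the trametinib responses of 3311 cells (50 nM) and 1027B organoids (10 nM), 8 members had responses that differed by edgeR's test of the difference itself. The log2 difference, 3311 minus 1027B, was -3.59 for Ugt1a7c (a fitted value against 1 and 4 counts in the 1027B vehicle libraries, and no measure of size), -2.76 for Ugt1a6a, -2.70 for Ugt1a6b, -2.24 for Gsta3, -1.77 for Gstt1, -1.46 for Mgst1, 1.51 for Gstt2 and 2.18 for Gstm7. For 5 of them (the 3 Ugt1a genes, Gsta3 and Mgst1) the 3311 value was negative and the 1027B value positive. Mgst1 had 80.5 and 83.7 CPM with vehicle and 48.9 and 66.8 CPM with trametinib in 3311 and was not called there.

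In the joint fit of H358 and H1651, 5 members differed by the same test. The log2 difference, H358 minus H1651, was 6.17 for SULT1E1 (a fitted value against 0 to 4 counts per library in H1651, and no measure of size), 1.46 for GSTK1, 0.97 for GSTM4, 0.68 for MGST3 and -1.08 for GSTO1.

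A further 2 members had no overlap between the groups in each of 2 comparisons but moved in opposite directions, and were called in at least 1. These differences were not tested. Gstk1 had a log2 fold change of -0.66 in the 2-week deletion of Hnf4a and 0.57 in the deletion with MRTX1133 of the 48 h experiment. Gstt2 had 0.65 with MRTX1133 in Hnf4a-deleted 3154 organoids and -0.35 with MRTX1133 in 1027B organoids. Groups held 2 libraries each, too few to look for a single library far from its group.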

How the results depend on the processing

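Of 77 fold changes of members that were called and given by library, none changed sign under 976 alternatives, and 146 of these ended a call. Many of the 77 were chosen as the largest changes without overlap. A change of sign was thus unlikely from the choice, and its absence is no measure of robustness. Counts of called members moved by over 1.5 times as follows. With at least 10 counts in every library, the 2-week deletion had 8 and MRTX1133 in 1027B had 1. With DESeq2, MRTX1133 in 1027B had 6 and MRTX1133 against trametinib had 3. With only the 2 groups compared, MRTX1133 in Hnf4a-deleted organoids had 10. Leaving out 1 library gave 5 to 25 for the 2-week deletion, 10 to 19 and 8 to 16 for the 48 h deletion with vehicle and MRTX1133, 0 to 5 for MRTX1133 in deleted organoids, 0 to 3 for HNF4A induction, 6 to 16 for 3311, 5 to 11 for trametinib and 0 to 2 for MRTX1133 in 1027B, 0 to 1 for H1651, and 4 to 10 and 3 to 6 for the mouse and human differences. For H358 the range was 8 to 13, within 1.5 times. In the 2-group design a library left alone is assumed to vary like the other group.

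With a replicate block the counts were 27 (2-week deletion), 8 (HNF4A induction), 22 (3311), 21 and 11 (trametinib and MRTX1133 in 1027B), 5 (MRTX1133 against trametinib) and 5 (trametinib in H1651); the other 8 stayed within 1.5 times. Of the fold changes given by library, 11 were called with the block and not without it (Gstp2 in both 48 h deletions and MGST3 with doxycycline among them) and 1, Gsta3 with MRTX1133 in deleted organoids, lost its call. The labels do not say that a number marks a shared culture or day. Replicate differences correlated across genes at 0.427 in the 2-week table, 0.243 to 0.414 in 1027B, 0.126 in 3311, 0.318 for doxycycline, 0.318 in H358 and 0.623 in H1651, and at -0.251 to 0.549 in the 48 h 3154 table; with 2 numbers this does not show pairing.

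Counts of all genes also moved: by DESeq2 they were 2336 against 1421 for the 2-week deletion, 319 against 54 and 1291 against 717 for MRTX1133 in intact and deleted organoids, 441 against 247 for HNF4A induction, 1593 against 913 for MRTX1133 in 1027B and 675 against 0 for MRTX1133 against trametinib. With the block they were 4563, 3048, 6540, 3515, 2050 and 1881 for the 2-week deletion, HNF4A induction, trametinib and MRTX1133 in 1027B, MRTX1133 against trametinib and H1651, and 3934 against 2103 and 8472 against 4087 for the mouse and human differences. With only the 2 groups compared they were 3154 against 4795 for the 48 h vehicle deletion, 0 for MRTX1133 in intact and 3932 in deleted organoids, and 1 for MRTX1133 against trametinib. With no filter on low counts H1651 had 2. Leaving out 1 library, they ranged from 395 to 2790 for the 2-week deletion, 1668 to 5964 and 1745 to 5828 for the 48 h deletion with vehicle and MRTX1133, 0 to 309 and 0 to 1638 for MRTX1133 in intact and deleted organoids, 232 to 412 for HNF4A induction, 3772 to 6298 for 3311, 1336 to 3461 and 138 to 629 for trametinib and MRTX1133 in 1027B, 0 to 193 for H1651, and 1041 to 2737 and 2177 to 3667 for the mouse and human differences.

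Sign changes were found only among fold changes that were not called, with the limit on called ones given above. With upper-quartile factors, which moved the median of all genes by 0.111 in the 2-week deletion, they were Mgst3 in the 48 h vehicle deletion (0.04), Gstp1 with MRTX1133 in deleted organoids (0.01), and Gstm1 in 3311 (0.00) and Gsta4 in 1027B (0.01) with trametinib; Mgst3 was 0.00 with at least 10 counts. Leaving out 1 library, Mgst3 ranged from -0.30 to 0.29 in that deletion. With MRTX1133 in intact organoids the ranges were -0.14 to 0.19 for Mgst1, -0.27 to 0.01 for Gsto1, -0.34 to 0.25 for Mgst3 and -0.21 to 0.42 for Gstm1, and in deleted organoids -0.04 to 0.16 for Gsto1 and -0.07 to 0.00 for Gstp1. With trametinib they were -0.06 to 0.31 for Gsto1 and -0.58 to 0.36 for Gstm1 in 3311, -0.40 to 0.12 for Gsto1, -0.28 to 0.03 for Mgst3, -0.20 to 0.19 for Gsta4 and -0.01 to 0.70 for Gstm1 in 1027B, and -0.00 to 0.26 for GSTP1 in H1651. With MRTX1133 in 1027B they were -0.38 to 0.00 for Gsta4 and -0.22 to 0.48 for Gstm1. Where no construction shows it, the cause was not tested. Members at or under 3 counts in a group have a lower bound in place of a fold.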
